A study of Homo sapiens with 3 samples.

Results

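The minor spliceosome was examined in H9 cells, an established line of human embryonic stem cells. The 10 genes described here were taken by symbol from a list of U12-type spliceosome components and matched through their Ensembl identifiers to GENCODE release 44. All 10 of them were found among the 58051 genes in the deposited counts, namely 4 genes of small nuclear RNAs (snRNAs), RNU11, RNU12, RNU4ATAC and RNU6ATAC, and 6 protein-coding genes, RNPC3, ZCRB1, SNRNP25, SNRNP35, SNRNP48 and ZRSR2. The study sequenced total RNA depleted of ribosomal RNA from 3 replicates of 1 condition, wild-type H9 cells without any treatment, grown in Essential 8 Flex medium on vitronectin. The sources used here do not say whether the replicates were separate cultures, so the spread between them may be technical. The libraries held between 8655155 and 12024802 counted reads. All 6 examined marker genes of embryonic stem cells, POU5F1, NANOG, SOX2, LIN28A, DPPA4 and TDGF1, were in the high expression class defined below, and the 9 markers of neuroectoderm, mesoderm, endoderm and fibroblasts were in the medium or low class, the highest of them being COL1A2 at 25.6 ± 1.67 TPM, a length-corrected expression level explained below (SD, n = 3).

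Most human introns are removed by the major spliceosome, and a small class, the U12-type introns, is removed by a separate minor spliceosome. In it, U11 and U12 recognize the 5′ splice site and the branch point in place of U1 and U2, and U4atac and U6atac take the place of U4 and U6, while U5 serves both machines. SNRNP25, SNRNP35 and SNRNP48 are proteins of the U11 particle, RNPC3 bridges U11 and U12, ZCRB1 belongs to the joint U11/U12 particle, and ZRSR2 recognizes the 3′ splice site. Germline defects of RNU4ATAC cause syndromes of growth and skeletal development, and ZRSR2 is mutated in myelodysplastic disease.

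The 4 snRNAs are shown with short stretches complementary to letters of the introns examined at the end or, for RNU4ATAC, to RNU6ATAC. Those introns were picked by fixed letters at their start and not from the snRNA sequences. The capitals mark the longest unbroken Watson-Crick complement to the most frequent letters of the AT-starting U12-type 5′ splice sites, for RNU11 and RNU6ATAC, to those of the branch point, for RNU12, and to RNU6ATAC itself, for RNU4ATAC. Sequences were read from hg38 on the transcribed strand, 5′ to 3′, with T for U. The runs were 7 bases in RNU11 (bases 1 to 7) and RNU12 (bases 19 to 25), 6 bases in RNU6ATAC (bases 11 to 16) and 8 bases in RNU4ATAC (bases 2 to 9). A complementary run is a match of letters and not a measured contact.
RNU11: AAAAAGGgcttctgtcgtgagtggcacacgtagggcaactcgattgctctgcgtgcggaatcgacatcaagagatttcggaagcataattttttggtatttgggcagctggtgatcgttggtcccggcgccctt
RNU12: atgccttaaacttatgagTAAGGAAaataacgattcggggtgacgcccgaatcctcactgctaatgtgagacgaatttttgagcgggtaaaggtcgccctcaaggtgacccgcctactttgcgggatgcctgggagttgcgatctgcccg
RNU4ATAC: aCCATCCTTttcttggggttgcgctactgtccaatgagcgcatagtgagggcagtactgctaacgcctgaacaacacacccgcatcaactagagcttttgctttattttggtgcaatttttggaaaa
RNU6ATAC: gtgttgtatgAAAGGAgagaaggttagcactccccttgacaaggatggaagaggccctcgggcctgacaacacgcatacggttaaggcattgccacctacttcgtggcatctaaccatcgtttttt

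The levels were compared as TPM, that is, deposited reads per base of a gene's exons, scaled to the same total in each replicate. Genes below 0.01 TPM in the mean were taken as nonexpressed, the threshold of the study. The genes above it were divided into 3 equal classes, for which only protein-coding genes were used here, at 3.35 and 26.96 TPM, and the snRNA genes were placed by the same boundaries. SNRNP25, RNU4ATAC and RNU6ATAC were in the high class, SNRNP48, SNRNP35, ZCRB1, RNPC3 and ZRSR2 in the medium class, RNU11 in the low class, and RNU12 was nonexpressed by this definition. RNU4ATAC and RNU6ATAC reached the high class with 40 and 34 reads in all, over 127 and 126 bases. The recovery of RNAs so short was not measured, so the classes of snRNA genes may not compare with those of protein-coding genes. RNU6ATAC fell out of the high class with the longest transcript as gene length, with a threshold of 1 TPM or without replicate 1, and with all genes classified 6 members in place of 3 were high. The 6 protein genes had a median of 10.5 ± 0.397 TPM (SD of the medians of 3 replicates), beside 7.08 ± 0.232 TPM over all 19629 protein-coding genes. Over the 16968 protein-coding genes at 0.01 TPM or more, the median of the mean levels was 11.7 TPM. The 6 genes were thus above the median of all protein-coding genes but not above that of the expressed ones. All 6 had reads in every replicate, as did 79.1% of protein-coding genes. These are bulk levels, in which fewer cells with a transcript and less of it per cell cannot be told apart.

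**Figure D1:**
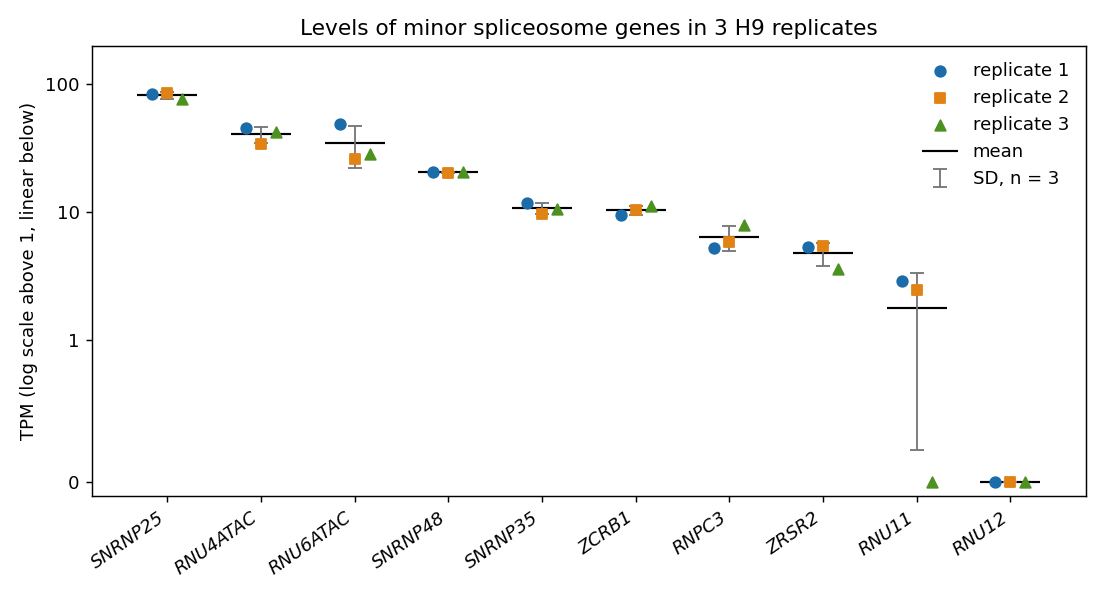
TPM of the 10 minor spliceosome genes (vertical axis, logarithmic above 1 and linear below) in the 3 H9 replicates (points), with the mean (line) and the SD (bar, cut at 0, n = 3). SNRNP25 is highest in every replicate, RNU4ATAC and RNU6ATAC overlap each other, and RNU12 is at 0 in all 3.

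The U11 proteins were unequal in level. SNRNP25 (ENSG00000161981, chr16:53828-57669, plus strand), which encodes the 25-kDa U11 protein, had 83.8, 85.6 and 76.8 TPM in replicates 1, 2 and 3, from 489, 581 and 382 reads. Its mean of 82.1 ± 4.68 TPM (SD, n = 3) was above that of 89.6% of protein-coding genes, and it was the highest of the 10 genes in each replicate. SNRNP48 (ENSG00000168566, chr6:7590198-7611967, plus strand), whose protein contacts the 5′ splice site, had 20.7, 20.4 and 20.5 TPM, from 315, 360 and 266 reads. The 3 values were nearly equal, with a coefficient of variation (CV) of 0.855% where the counts alone would give about 5.70%. SNRNP35 (ENSG00000184209, chr12:123458088-123473154, plus strand), the counterpart of the U1 protein SNRNP70, had 11.7, 9.72 and 10.7 TPM, from 143, 138 and 111 reads. SNRNP25 was thus 3.99 ± 0.235 times as high as SNRNP48 and 7.72 ± 0.942 times as high as SNRNP35 (SD of the ratio, n = 3), and SNRNP48 was 1.93 ± 0.163 times as high as SNRNP35. None of the ranges of these 3 genes overlapped. Of the exon length of SNRNP35, 43.96% lies over exons of RILPL1 on the opposite strand, which had 23.0 reads per kb against 83.5 for SNRNP35 over all replicates. The sources used here do not give whether counting used the strand, so reads of the shared part cannot be told apart.

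The listed proteins of the joint U11/U12 particle and of the 3′ splice site had means between 4.76 and 10.3 TPM. ZCRB1 (ENSG00000139168, chr12:42312086-42326257, minus strand), an RNA-binding zinc finger protein, had 9.42, 10.5 and 11.1 TPM, from 234, 302 and 235 reads. RNPC3 (ENSG00000185946, chr1:103525691-103555239, plus strand), the 65-kDa protein that binds U12, had 5.20, 5.87 and 7.94 TPM, from 93, 122 and 121 reads. ZRSR2 (ENSG00000169249, chrX:15790156-15830694, plus strand), a relative of U2AF1, had 5.29, 5.39 and 3.61 TPM, from 103, 122 and 60 reads. ZCRB1 overlapped SNRNP35 in range and RNPC3 overlapped ZRSR2, and the means within either pair differed by less than the SD of their difference. ZCRB1 was above RNPC3 in all 3 replicates, with no overlap. ZRSR2P1, the processed copy of ZRSR2 on chromosome 5, had 1 read in all and lies under exons of SRP19 on its strand. Exons of AMY2B on the same strand cover 18.9% of the exon length of RNPC3, and AMY2B had 6 reads over the 3 replicates. Exons of AP1S2 on the opposite strand cover 11.1% of that of ZRSR2, and AP1S2 had 1461 reads per kb against 38.1 for ZRSR2. The order of ZCRB1 and SNRNP35 turned when length was taken from the longest transcript, at 18.2 ± 1.54 and 17.5 ± 1.61 TPM (SD, n = 3), and they still differed by less than their SD.

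RNPC3 and ZRSR2 moved in opposite directions in replicate 3. Reads scaled by library size only (CPM) were 8.95, 10.1 and 14.0 for RNPC3 and 9.91, 10.1 and 6.93 for ZRSR2. On the log2 scale of CPM + 0.5, replicate 3 was 0.53 above the mean of replicates 1 and 2 for RNPC3 and 0.50 below it for ZRSR2 (log2 difference -0.50). Of 1768 protein-coding genes with a total count within 1.5 times that of ZRSR2, 0.566% had a lower difference, and of 1908 such genes for RNPC3, 95.5% had a lower one. The other 6 members with at least 20 reads lay between the 18.3rd and the 77.8th percentile of their like genes. The TPM of RNPC3 had a CV of 22.5% and that of ZRSR2 20.9%, where the counts alone would give about 9.53% and 10.4%. Without replicate 3 the means were 5.54 TPM for RNPC3 and 5.34 TPM for ZRSR2, in place of 6.34 ± 1.43 and 4.76 ± 0.997 TPM (SD, n = 3). The exons of both genes are poor in GC, at 36.3% and 39.9%, as are those of SNRNP48 and ZCRB1, at 35.6% and 36.8%. The part of base composition, of AP1S2 or of the library in these differences was not tested.

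**Figure D2:**
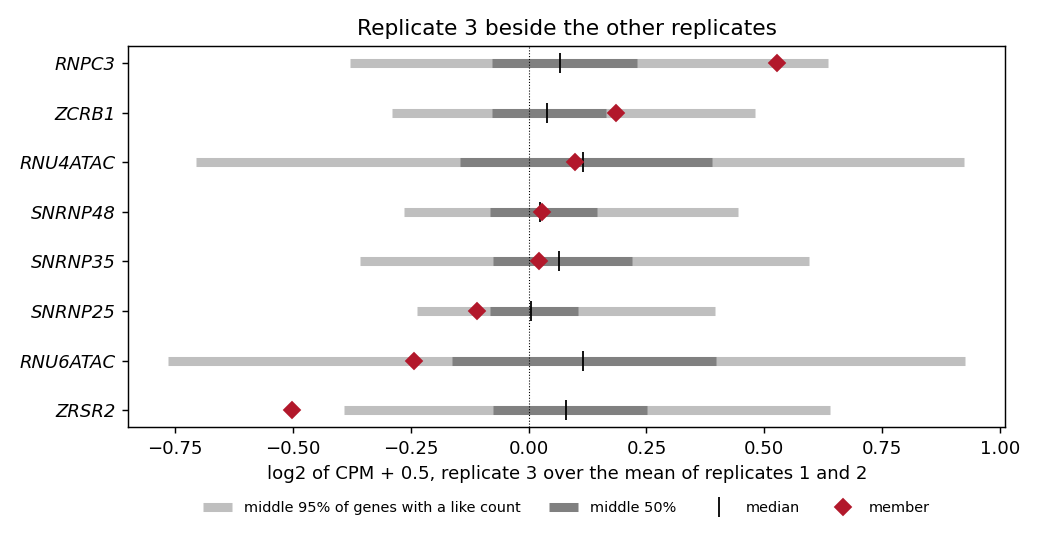
Log2 of CPM + 0.5 in replicate 3 over the mean of replicates 1 and 2 (horizontal axis) for the 8 members with at least 20 reads (diamonds), beside the middle 50% and 95% of protein-coding genes with a like total count (dark and light bars) and their median (tick). ZRSR2, at -0.50, lies outside the light bar, and RNPC3, at 0.53, near the upper end of its own.

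The snRNA genes rested on few reads. RNU4ATAC (ENSG00000264229, chr2:121530881-121531007, plus strand, 127 bases) had 15, 13 and 12 reads, which is 45.4, 33.8 and 42.6 TPM. RNU6ATAC (ENSG00000221676, chr9:134164439-134164564, minus strand, 126 bases) had 16, 10 and 8 reads, which is 48.8, 26.2 and 28.6 TPM. Both RNAs, which pair with each other in the tri-snRNP, were detected in every replicate at like levels, and U4atac was 1.24 ± 0.283 times U6atac (SD, n = 3), higher in 2 of 3 replicates. The total of 40 reads of RNU4ATAC has an exact 95% Poisson interval of 28.6 to 54.5 reads and the 34 reads of RNU6ATAC one of 23.5 to 47.5 reads, which cover counting error only. RNU4ATAC lies in the span of CLASP1, which runs on the opposite strand, and touches none of its exons. It also lies in the span of CLASP1-AS1, a noncoding gene on its own strand, and touches none of its exons. The exons of CLASP1 had 441 reads per kb, those of CLASP1-AS1 16.1 and RNU4ATAC 315. The density of reads in the introns around RNU4ATAC was not measured. RNU6ATAC lies in no other annotated gene.

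RNU11 and RNU12 were at or near 0. RNU11 (ENSG00000274978, chr1:28648600-28648733, plus strand, 134 bases) had 1, 1 and 0 reads, and RNU12 (ENSG00000276027, chr22:42615244-42615393, plus strand, 150 bases) had 0 in all 3. A count of 0 in a single library allows up to 3 reads. For RNU12 this is 7.68, 6.61 and 9.01 TPM in replicates 1, 2 and 3, each taken alone. These levels are not a limit for the 3 replicates together. The total of 0 reads of RNU12 has an exact 2-sided 95% Poisson interval that ends at 3.69 reads over all 3. The allowance of 3 reads is a fixed floor and not the end of such an interval, so the 2 limits should not be compared. Both limits cover counting error only. In GENCODE, 97.8% of RNU11 lies within the exon of a noncoding gene on the same strand, ENSG00000270103, which had 0 reads. RNU12 lies entirely within ENSG00000270022, a gene of 664 bases on the same strand, which had 7, 21 and 18 reads. In the counts, 42 annotated snRNA genes, RNU11 and RNU12 among them, have at least 90% of their length under same-strand exons of another counted gene. Of these 42, 85.7% had no read and none had more than 3 over the replicates. Of the 1846 snRNA genes with no such overlap, 78.0% had no read and 80 had more than 3. More than 3 reads were thus uncommon in both sets. RNU5E-1, which lies under an annotated gene that has no row in the counts, had 53 reads. RN7SK and RPPH1, longer noncoding RNAs that lie fully within other annotated exons on their strand, also had 0 reads, and so did RMRP, which does not. What the overlap contributes to the counts of RNU11 and RNU12 was not tested, so it is not known whether their counts give their levels.

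Annotated copies of the minor snRNAs held few reads. GENCODE lists 41 copies of RNU6ATAC, with 9 reads in all and at most 2 on any of them, and 17 copies of RNU4ATAC with 1 read. The 5 copies of RNU11 had 4 reads, beside 2 on RNU11 itself, and the copy of RNU12 had 0. RNU6ATAC2P matches RNU6ATAC at 99.2% of its bases over the full length and had 0 reads. How far reads of either gene map to the other was not tested. The closest copies of RNU4ATAC, RNU12 and RNU11 match at 90.4%, 90.9% and 87.4% over at least 80% of the length. Of the 1900 annotated snRNA genes in the counts, 78.2% had no read, and RNU4ATAC and RNU6ATAC ranked 24th and 27th by reads among them.

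The snRNAs of the major spliceosome served as a reference at like length. RNU4-1 and RNU4-2 together had 482, 687 and 443 reads and 1446 ± 151 TPM, which is 36.6 ± 9.77 times the level of RNU4ATAC (SD, n = 3). The 5 U5 genes, whose RNA both spliceosomes use, summed to 271 ± 41.6 TPM, or 6.76 ± 1.15 times RNU4ATAC and 8.56 ± 3.16 times RNU6ATAC. U6atac went against this order beside its major counterpart. The 5 U6 genes examined had 1, 3 and 2 reads in all and 7.09 ± 3.06 TPM, below RNU6ATAC in every replicate. The 4 U1 genes had 0, 3 and 1 reads and RNU2-1 and RNU2-2P had 0, so that U1 and U2 offered no reference for U11 and U12. U1, U2 and U6 are encoded by many identical or near-identical copies, among which the counting could have split or dropped reads, and RNVU1-31 of the U1 family, named after its value was seen, had 1079 reads.

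**Figure D3:**
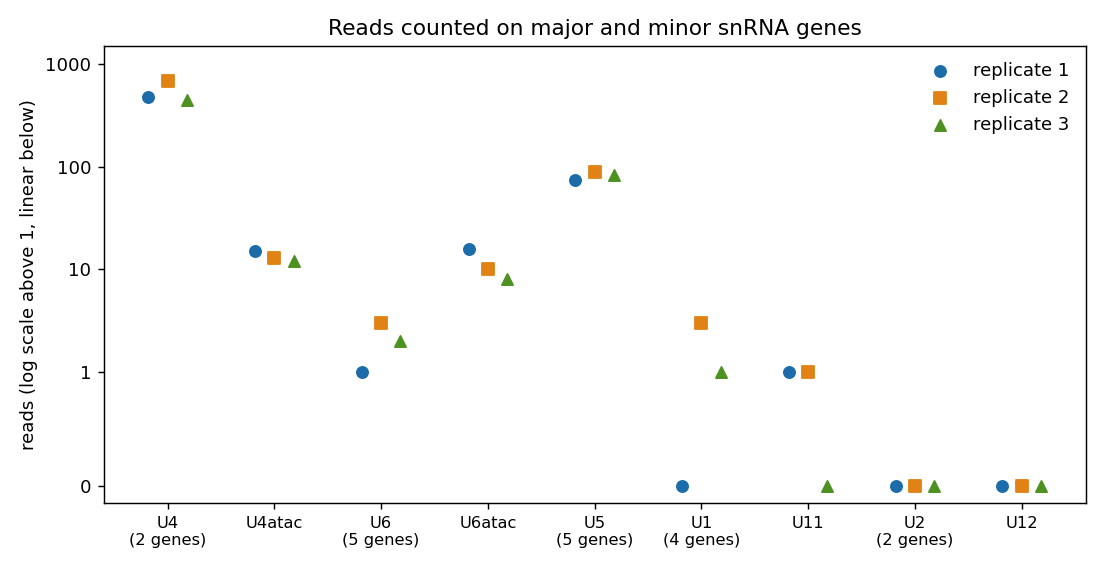
Reads counted on snRNA genes (vertical axis, logarithmic above 1 and linear below) in each replicate (points), with each minor snRNA after its major counterpart and U5 apart. U4 and U5 are above U4atac and U6atac, while U6, U1, U11, U2 and U12 have between 0 and 3 reads per replicate.

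The 6 proteins were set beside other proteins of the minor spliceosome and beside proteins found only in the major one. The 8 further minor proteins ranged from 5.49 ± 1.34 TPM for ZMAT5, a zinc finger protein of the U11/U12 particle, to 55.2 ± 2.42 TPM for CENATAC, a factor needed for splicing of AT-AC introns, with 3 in the high and 5 in the medium class. PDCD7, another U11/U12 protein, had 33.6 ± 1.89 TPM and SCNM1 27.8 ± 3.64 TPM. TXNL4B, CRIPT, RBM48 and ARMC7 lay between 7.00 and 19.3 TPM. Over all 14 minor proteins the median was 11.7 ± 0.309 TPM, and over 10 major-specific proteins it was 157 ± 3.20 TPM, a ratio of 13.5 ± 0.123 (SD, n = 3). The inverse, minor over major, was 0.0743, and it was 0.112 with the longest transcript as gene length and 0.167 from means of log2(TPM + 1). SNRNP25, the highest minor protein, was below 8 of the 10 major-specific proteins and above SNRPA1, at 60.7 ± 2.59 TPM, and U2AF1. These lists were chosen with earlier results of the same data known, and no test was made between them.

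U2AF1, the major counterpart of ZRSR2, had 3, 14 and 4 reads and 0.228 ± 0.166 TPM. A copy of it on the same chromosome, ENSG00000275895 (chr21:6484623-6499248), which GENCODE labels an artifact, had 5, 13 and 3 reads. Reads of either could map to the other, so the level of U2AF1 is uncertain. U2AF2, its partner in recognizing the 3′ splice site, had 257 ± 5.60 TPM and was 55.9 ± 13.7 times as high as ZRSR2. SNRNP70 was 13.0 ± 1.05 times as high as SNRNP35, which holds the same place in the U11 particle, but 1.69 ± 0.139 times as high as SNRNP25. TXNL4A of the tri-snRNP was 4.49 ± 0.187 times as high as its minor relative TXNL4B. Leaving out U2AF1, which was decided after its value was seen, lowered the ratio of minor to major medians from 0.0743 to 0.0672.

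Proteins used by both spliceosomes had medians near that of the major-specific ones. The 7 Sm proteins, which form the ring around each of these snRNAs other than U6 and U6atac, had a median of 157 ± 5.98 TPM and ranged from 106 to 490 TPM. The 18 proteins of SF3B, which holds the branch point, and of the U5 tri-snRNP had a median of 144 ± 7.51 TPM, from 28.4 ± 3.82 TPM for PPIH to 359 ± 27.4 TPM for SF3B5. All 25 were in the high class, beside 1 of the 6 listed minor proteins, 4 of all 14 minor proteins and 28.8% of all protein-coding genes.

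**Figure D4:**
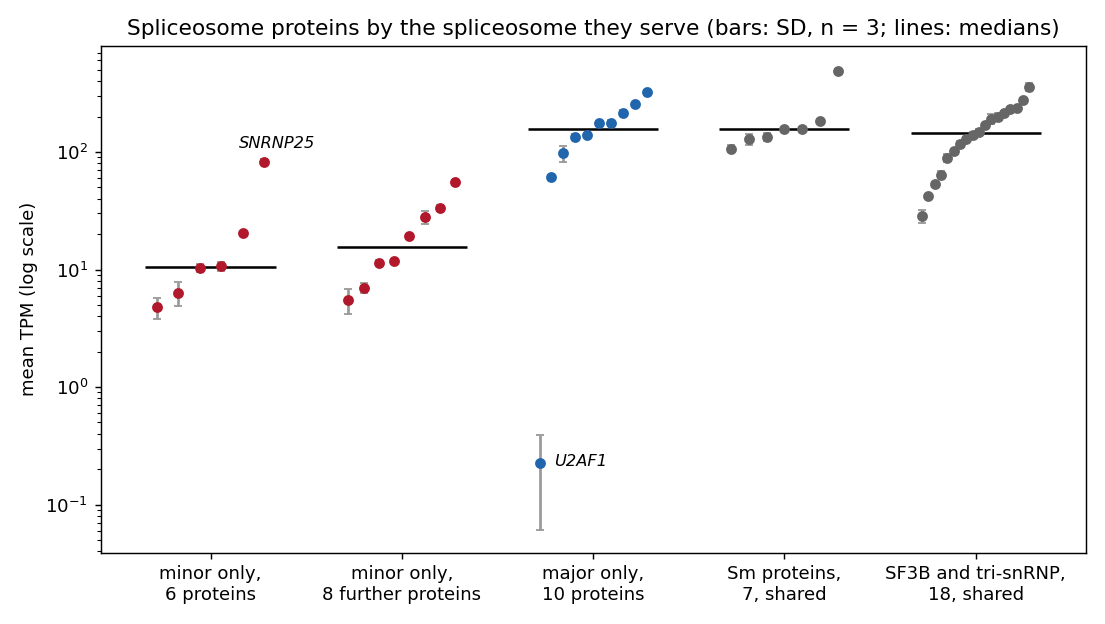
Mean TPM (vertical axis, log scale) of spliceosome proteins grouped by the spliceosome they serve, with the SD between 3 replicates (bars) and the median of each group (lines, at 10.5, 15.6, 157, 157 and 144 TPM from left to right). The medians of both minor groups lie below those of the other 3, while single genes overlap, SNRNP25 at 82.1 TPM lying above SNRPA1 at 60.7 and PPIH at 28.4 TPM.

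A pair of the U11 and U12 genes also carry U12-type splice site letters of their own. As background, a tandem of U12-type 5′ splice sites in SNRNP48 and RNPC3 is known to bind U11 and to steer the splicing of these transcripts. The letters ATATCCTT and GTATCCTT were searched on the transcribed strand of all 19629 protein-coding genes, from first to last base. A pair of them starting within 30 bases of each other was found in 242 genes, or 1.23%, among them SNRNP48 and RNPC3 and none of the other 4 members. Longer genes hold more letters, and among genes with a span within 1.5 times that of SNRNP48 or RNPC3 the share was 0.344% and 0.425%. The pairs are shown with the matched letters in capitals. That of SNRNP48 lies at chr6:7599734-7599763, within an annotated exon but in no coding sequence or UTR, and its sites start 18 bases apart. That of RNPC3 lies at chr1:103553316-103553342, within a UTR, and its sites start 15 bases apart.
SNRNP48: caGTATCCTTtttgcaaatgATATCCTTtt
RNPC3: gtGTATCCTTtcttgtcGTATCCTTtt
Counts per gene do not separate the transcripts that these sites distinguish, and use of the sites was not measured.

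Genes with an intron that starts with U12-type letters were then examined, since transcripts with U12-type introns are the substrates of the minor spliceosome. Among 228616 introns of protein-coding transcripts in the GENCODE basic set, 603 started with ATATCCTT or GTATCCTT on the transcribed strand, which is 0.264% of them, in 530 genes. Of these, 179 started with AT, of which 155 ended in AC, and 424 started with GT, of which 417 ended in AG. The branch point letters CCTTAAC, which the first search did not use, occurred in the last 40 bases of 26.0% of these introns and of 0.228% of the others. A match of 8 letters is a strict rule that misses U12-type introns with other letters. It can also take in introns that the minor spliceosome does not remove, and it says nothing of whether an intron is spliced in H9 cells.

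The mean levels of genes with such an intron had a median of 19.4 TPM in H9 cells (528 genes with counts), beside 8.09 TPM over the 17890 other protein-coding genes with introns. Within single replicates the medians were 18.9, 19.2 and 19.1 TPM (SD 0.137), beside 7.85, 8.00 and 8.33 TPM. Of the genes with such an intron, 39.96% were in the high class and 2.46% nonexpressed, beside 29.7% and 11.4% of the other genes. At 1 TPM or more were 86.2% of the genes with such an intron and 69.6% of the others. The lower median of the others thus includes a larger share of genes with little or no expression, and the medians of expressed genes alone were not compared. With the branch point letters required as well, the median was 20.7 TPM over 145 genes. Both kinds of start had like medians, at 17.6 TPM for 166 genes with AT and 19.4 TPM for 384 with GT, and some genes hold both. Genes with the letters had a median of 17 introns against 9, and a gene with more introns can match more often. At 1 to 9 introns the medians were 22.3 TPM for 97 genes with the letters and 3.99 TPM for 9139 without. At 10 to 19 introns they were 21.5 TPM for 216 genes with the letters and 12.4 TPM for 5622 without, and at 20 to 49 introns 17.2 and 13.7 TPM. At 50 introns or more the order turned, at 0.877 TPM for 15 genes and 9.30 TPM for 227. Since genes do not stand for replicates, the difference was not tested.

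**Figure D5:**
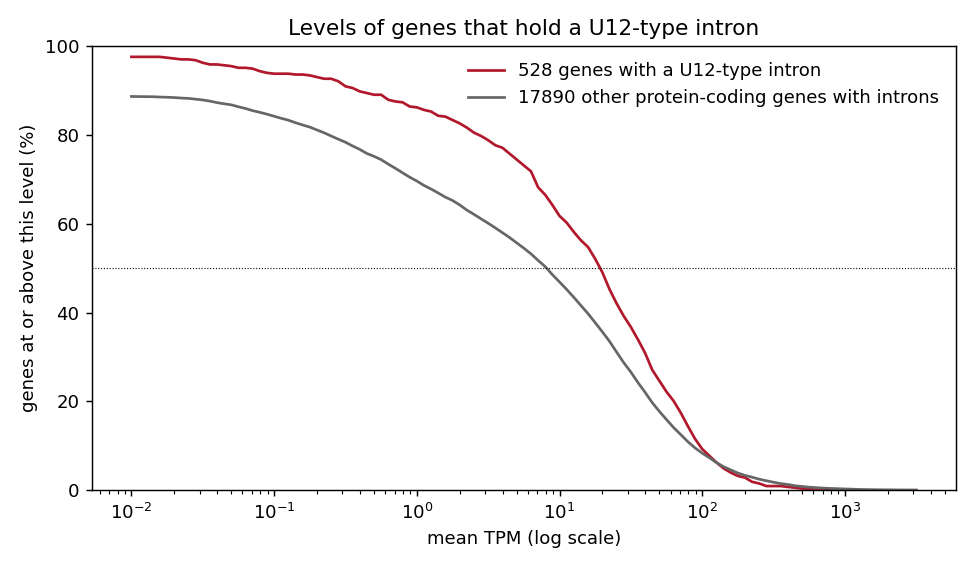
Share of genes at or above a given mean TPM (vertical axis, percent; horizontal axis, log scale) for genes with an intron that starts with the U12-type letters and for other protein-coding genes with introns. The curves cross the 50% line at 19.4 and 8.09 TPM, and the order of the shares turns at high levels, with 7.77% and 7.32% at 112 TPM and 1.89% and 2.94% at 224 TPM.

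The 5 most highly expressed genes with such an intron were RPL4, a protein of the large ribosomal subunit, XRCC5, the DNA end-binding Ku80, TCP1, a subunit of the CCT chaperonin, HNRNPM, an RNA-binding splicing regulator, and SMS, which makes spermine. Their splice sites are shown with the 8 matched letters in capitals.
RPL4: GTATCCTTtgtt
XRCC5: GTATCCTTtttc
TCP1: GTATCCTTgtgg
HNRNPM: GTATCCTTctgc
SMS: ATATCCTTtgtt
RPL4 (chr15:66502751-66503057, minus strand) had 792, 827 and 764 TPM. XRCC5 (chr2:216116843-216117745, plus strand) had 795, 799 and 732 TPM, TCP1 (chr6:159784848-159785385, minus strand) 465, 468 and 419 TPM, and HNRNPM (chr19:8466389-8467534, plus strand) 437, 423 and 398 TPM. SMS had 381, 381 and 353 TPM, and its intron at chrX:21978115-21978876 on the plus strand starts with AT and ends in AC. The coordinates are those of the introns in hg38. The branch point letters were found near the 3′ end in XRCC5, TCP1 and SMS, starting 15, 18 and 18 bases from it, and not in RPL4 or HNRNPM. SMS holds another intron with GTATCCTT, at chrX:21992713-21994311. Each of these genes was more than 4 times as high as SNRNP25 in each replicate.

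RNPC3 was the only one of the 14 minor spliceosome proteins with such an intron, which starts with GTATCCTT and lies at chr1:103551074-103551720 on the plus strand. It ends in AG and has no branch point letters in its last 40 bases. RNPC3 thus holds these letters at an annotated intron start and in the pair within its UTR, and its level of 6.34 TPM was below the median of the genes that share the letters.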

How the data were processed

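Total RNA of 3 untreated H9 replicates was depleted of ribosomal RNA and sequenced. RNA was purified on RNeasy columns, and the recovery of RNAs as short as snRNAs was not measured. According to the methods and labels, the authors trimmed reads (Trim Galore 0.4.4), aligned them to GRCh38/hg38 (TopHat2 2.1.1) and estimated their own TPM with Cufflinks 2.2.1, which was not used here. The deposited counts are raw read numbers for each Ensembl gene, with no normalization by the authors, and every row names a gene. How these reads were counted (tool, annotation, strand) is not given in the sources used here.

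Here 56948 of 58051 identifiers were matched to GENCODE release 44 on the same build, and TPM was computed from the union of exons. Introns and sequences were read from hg38 with pysam 0.24.0, and copies were sought with blastn 2.17.0. edgeR 4.0.16 and DESeq2 1.42.0 gave scaling factors only. Steps were tested on simulated data. There is 1 condition, so no test was made. Members and lists were chosen with earlier results of these data known. Named genes were the members, fixed lists of spliceosome and marker genes, genes overlapping a member, annotated copies, and the 5 highest genes with a U12-type intron. Alternatives were gene length, scaling, filters, thinning, averages and replicates left out. Depth was 10390984, 12024802 and 8655155 reads.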

Additional observations from a re-analysis of the deposited data

How the results depend on the processing

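In CPM, which is not corrected for length, RNU4ATAC and RNU6ATAC fell from ranks 2 and 3 to ranks 7 and 8. The sum of the 4 snRNA genes was 2.46 CPM. CPM and TPM are different units, so only the order of the members can be compared between them. With the longest transcript, 6 of 10 mean TPM moved by more than their SD (5 higher and 1 lower), the median of the 6 proteins was 17.8 TPM, the ratio of minor to major medians 0.112, the median of genes with a U12-type intron 21.8 TPM and the sum of the 4 snRNA genes 57.9 TPM in place of 76.9. Without mitochondrial genes, every member with reads was higher, for example SNRNP25 at 85.5 in place of 82.1 TPM. Only SNRNP48, whose SD was as small as 0.176 TPM, moved by more than its SD, at 21.4 in place of 20.5 TPM. The protein median was then 10.9 TPM and the U12-type median 20.2 TPM. That median was 24.4 TPM with a threshold of 1 TPM, at which no median of the other genes was computed. The U12-type median was 20.7 TPM with branch point letters, 19.2 TPM as the median of replicates, and 19.2 to 19.5 TPM with a replicate left out. With all genes classified, 6 members in place of 3 were in the high class. The ratio was 0.167 from means of log2(TPM + 1) and 0.0672 without U2AF1, an alternative chosen after seeing the data. TMM and DESeq2 factors moved no member by more than its SD, but they lay between 0.985 and 1.02, and factors so near 1 can hardly change a mean. RNU6ATAC left the high class under the longest transcript, a threshold of 1 TPM and without replicate 1, each of which left 2 members there. Thinned to 10% of the reads, as medians of 11 random draws, RNU11 was at 0, while RNU4ATAC and RNU6ATAC moved by less than their SD. Thinning leaves the expected TPM unchanged, so these medians cannot show how far the levels would scatter in a smaller library. Adding the genes that cover RNU11 and RNU12, also chosen after seeing the data, gave a sum of 85.8 TPM. No paired analysis was possible because all 3 samples belong to 1 condition.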
